A study of Arabidopsis thaliana with 4 samples.

Results

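The XTH family of Arabidopsis thaliana encodes xyloglucan endotransglucosylase/hydrolases, secreted enzymes that cut xyloglucan chains in the plant cell wall. Most members join the cut end to another xyloglucan chain, and some transfer it to water, which shortens the chain. Xyloglucan coats and links cellulose microfibrils in the primary wall, so these enzymes are known for loosening, rebuilding and strengthening walls as cells grow, and several family members act mainly in roots. The members described here are the probe sets with exactly 1 gene in the platform's probe-to-gene table whose symbol there is XTH followed by digits, apart from the root hair gene XTH26. This gave 8 of the 22746 probe sets: XTH16 (AT3G23730), XTH18 (AT4G30280), XTH19 (AT4G30290), XTH20 (AT5G48070), XTH21 (AT2G18800), XTH29 (AT4G18990), XTH32 (AT2G36870) and XTH33 (AT1G10550). RefSeq assembly TAIR10.1 lists 30 genes under symbols of this form, and 9 of them, XTH26 included, had a single-gene probe set in the table. The remainder of the family was not analysed here under its own names. EXGT-A3, a synonym of which is XTH27, was left out because the table gives it under the older symbol.

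Roots of wild-type Col-0 plants, 4 to 5 weeks old and grown in hydroponics, were profiled on single-colour Affymetrix ATH1 arrays after transfer to fresh solution. Control solution held 0.5 mM KH2PO4 and 1.25 mM KNO3, and the potassium-free solution held 0.5 mM H3PO4 and 1.25 mM HNO3 in their place, with the calcium, magnesium, iron-EDTA and trace salts shared by both. Each of the 4 groups was 1 array of mixed roots: control at 48 h, starved at 48 h, control at 96 h and starved at 96 h. Neither the number of plants in a mix nor the pH of either solution is given in the labels, so low potassium and added acid cannot be told apart.

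Values are MAS5 signal intensities on a linear scale, and the array medians were 47.2 (control 48 h), 46.8 (starved 48 h), 47.0 (control 96 h) and 47.8 (starved 96 h). That the scale is linear and uncentred was read from the values, since no scanner files were used here. No group held a replicate array, so a difference between 2 arrays has no error of its own, and the number of arrays limits every value. In whole-root RNA, fewer cells of a type and less RNA per cell cannot be told apart. The control 96 h array stood apart in its spiked-in hybridisation control CreX-3, with 856 against 1495 to 1758 on the others. The starved 48 h array did so in a 25S ribosomal RNA probe set, with 795 against 58.7 to 73.1. Of the marker lists for other tissues, those for green tissue, root cap, endodermis, xylem and phloem had 0 genes with a named probe set. The root hair list had 5 of 5, and none of them was below the 40th percentile on all arrays.

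A member was tested when its signal reached the array's own 40th percentile, between 29.4 and 30.4, on at least 2 of the 4 arrays. XTH16, XTH18, XTH19, XTH20, XTH32 and XTH33 passed, and XTH21 and XTH29 did not. Just inside the limit was XTH33, which reached it on 3 arrays, and just outside was XTH21, which reached it on 1. Differences below are on the log2(signal + 16) scale, which understates the change of dim probe sets. All 6 tested members were dimmer in control roots at 96 h than at 48 h, as were 51.8% of all tested probe sets. Otherwise their patterns differed. XTH33 and, by less, XTH18 were dimmer in starved than in control roots at both times (26.7% of all tested probe sets). XTH16, XTH18 and XTH32 had both 96 h arrays dimmer than both 48 h arrays (26.4%). XTH16, XTH19, XTH20 and XTH32 had opposite starvation differences at the 2 times (49.4%).

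**Figure D1:**
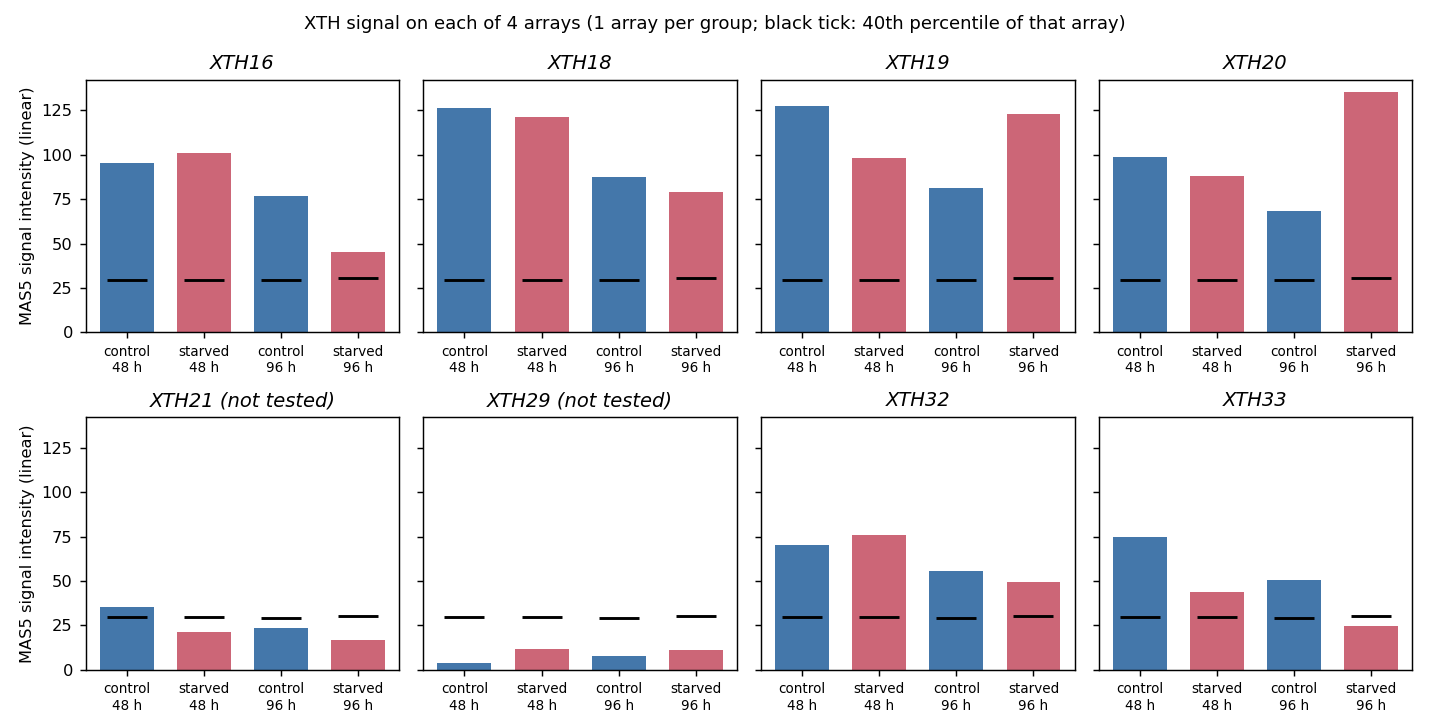
MAS5 signal intensity (linear axis from 0) of the 8 XTH probe sets on each of the 4 arrays, with the array's 40th percentile as a black tick. Blue bars are control and red bars potassium-starved roots, 1 array each, so there are no error bars. XTH33 is lower in starved roots at both times, XTH20 is brightest in starved roots at 96 h, and all 4 bars of XTH29 lie below the tick.

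The first comparison asked which members differed between starved and control roots. None of the 6 tested members passed limma for starvation averaged over both times, where the threshold was a Benjamini-Hochberg adjusted p of 0.05. Over all 13998 tested probe sets 27 did (0.193%). At an unadjusted p below 0.05, limma counted 1 of the 6 members, XTH33, and 7.39% of all tested probe sets. The members' median difference was -0.10 at 48 h and -0.13 at 96 h, beside -0.01 and 0.00 over all tested probe sets. Of the 6, 4 were lower in starved roots at 48 h (52.7% of all tested probe sets) and 4 at 96 h (50.1%), but only XTH18 and XTH33 were lower at both, and 26.7% of all tested probe sets were.

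XTH33 belongs to the branch of the family usually called group III. Its signal was 74.7 (control) and 44.0 (starved) at 48 h, and 50.4 (control) and 24.8 (starved) at 96 h. Both control arrays were brighter than both starved arrays, so the solutions did not overlap, and 13.0% of all tested probe sets were ordered in this way. The starved 96 h signal lay below that array's 40th percentile of 30.4. The log2 difference was -0.59 at 48 h and -0.70 at 96 h, that is, 1.51-fold and 1.63-fold lower. A difference of at least 1.4-fold lower at both times was found for 42 of the 13998 tested probe sets (0.300%), and XTH33 was the only member among them. These sizes depend on the pseudocount. With a pseudocount of 64 XTH33 was 1.28-fold lower at 48 h and 1.29-fold at 96 h and no member passed that limit, and with a pseudocount of 1 it was 1.68-fold and 1.99-fold lower. The average over both times was -0.65 ± 0.16 (SE, 2 arrays per solution) with an adjusted p of 0.150 from limma, so it did not pass. That SE is borrowed largely from other probe sets and is no measure of replicates of XTH33. Left out singly, each array kept the value negative, from -0.93 without the starved 48 h array to -0.37 without the starved 96 h array. Those fits lacked the time term, so their values also hold part of the harvest difference.

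XTH18, XTH19 and XTH20, with XTH17, are known as the XTH genes of the root, where they differ in the zones and tissues that express them. XTH18 and XTH19 lie next to each other on the chromosome, with 0 genes between them in RefSeq assembly TAIR10.1. Signals of XTH20 were 98.6 (control) and 88.0 (starved) at 48 h, and 68.6 (control) and 135.5 (starved) at 96 h. The starved 96 h array held the highest value and the control 96 h array the lowest, but control exceeded starved at 48 h, so the solutions overlapped. The log2 difference was -0.14 at 48 h and 0.84 at 96 h, the latter 1.79-fold higher. At 96 h, 99.2% of all tested probe sets had a lower difference. XTH19 measured 127.7 (control) and 98.3 (starved) at 48 h, and 81.4 (control) and 122.9 (starved) at 96 h. It too was brighter in control roots at 48 h and in starved roots at 96 h, with log2 differences of -0.33 and 0.51, and its control and starved arrays overlapped. XTH18 measured 126.3 (control) and 121.2 (starved) at 48 h, and 87.3 and 79.1 at 96 h. Its starvation differences of -0.05 and -0.12 were the smallest of the 3 root genes at both times, and the one at 96 h had the opposite sign to that of its neighbour XTH19.

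The average starvation difference from limma was 0.35 ± 0.19 (SE) for XTH20, with an adjusted p of 0.783. It was 0.09 ± 0.18 for XTH19 and -0.09 ± 0.15 for XTH18, each with an adjusted p of 1.000. For XTH19 and XTH20 this average joins differences of opposite sign and describes neither time. The control 96 h array, which held the lowest XTH19 and XTH20 signals, also had the lowest signal on 9 of the 10 GAPDH and ubiquitin control probe sets. On AFFX-r2-At-GAPDH-3_s_at it measured 1763 against 1967 to 2543, and on AFFX-r2-At-Ubq-3_x_at 2266 against 3074 to 3521. The starved 96 h array, where XTH20 was brightest, held the highest value on both and on most of the others. The exception was AFFX-r2-At-Ubq-5_x_at, with 2283 against 2487 on the starved 48 h array. The part of the quality of either 96 h array in the XTH19 and XTH20 values was not tested.

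XTH16 measured 95.5 (control) and 100.9 (starved) at 48 h, and 76.9 (control) and 45.0 (starved) at 96 h. Starved roots were the brightest at 48 h and the dimmest at 96 h, so the solutions overlapped. The log2 difference was 0.07 at 48 h and -0.61 at 96 h, the latter 1.52-fold lower. XTH32, of the group III branch in which chain-shortening hydrolase activity is known, measured 70.4 (control) and 76.0 (starved) at 48 h, and 55.9 and 49.6 at 96 h. Its starvation differences, 0.09 and -0.13, were each within 1 SD of the differences over all tested probe sets, 0.24 at 48 h and 0.29 at 96 h. limma gave averages of -0.27 ± 0.17 (SE, adjusted p = 0.865) for XTH16 and -0.02 ± 0.16 (adjusted p = 1.000) for XTH32.

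**Figure D2:**
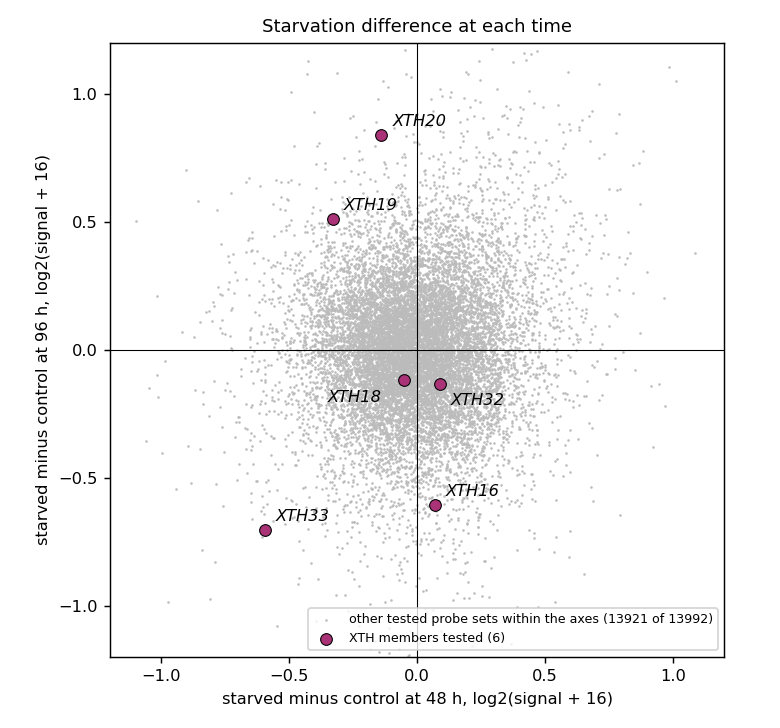
Difference of starved minus control roots at 48 h (x axis) and at 96 h (y axis), on the log2(signal + 16) scale, for the 6 tested XTH members (purple) and the other tested probe sets (grey). XTH33 lies at -0.59 and -0.70, XTH19 and XTH20 lie left of 0 and above it, and 71 probe sets fall outside the axes.

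At 48 h 0 of the 6 members and 0.143% of all tested probe sets differed at least 2-fold between the solutions, and at 96 h 0 members and 0.850%. With the lower limit of 1.4-fold, 1 member (XTH33) and 4.54% of all tested probe sets passed at 48 h. At 96 h 4 members and 8.51% of all tested probe sets did: XTH19 and XTH20 were higher, and XTH16 and XTH33 lower, in starved roots. These are differences between 2 single arrays and have no test. Their sizes depend on the pseudocount. With a pseudocount of 1, XTH33 was 1.99-fold lower at 96 h, just short of 2-fold. At that setting 0 members passed 2-fold at either time, beside 0.657% (48 h) and 1.62% (96 h) of all tested probe sets.

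The starvation difference had opposite signs at the 2 times for 4 of the 6 members (XTH16, XTH19, XTH20 and XTH32) and for 49.4% of all tested probe sets. Among the 6, its shift between the times was largest for XTH20, with 0.98 more on the log2 scale at 96 h than at 48 h, and XTH19, with 0.84 more. XTH16 shifted by -0.67, and XTH32, XTH33 and XTH18 by -0.22, -0.11 and -0.07. The SD of this shift over all tested probe sets was 0.36. Shifts below that of XTH20 were found for 99.4% of all tested probe sets, and shifts below that of XTH16 for 2.98%. With 1 array per group this shift is the residual of the limma model and could not be tested.

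Members were next compared between the 2 harvest times. In control roots all 6 tested members were lower at 96 h, where 51.8% of all tested probe sets were, and their median difference was -0.44 beside -0.01 over all tested probe sets. The control 96 h array, on which this order rests, is the one with the low CreX-3, GAPDH and ubiquitin control signals given above, and the part of that in the 6 lower values was not tested. In starved roots 4 of the 6 were lower at 96 h (50.1% of all tested probe sets), with a median of -0.51 beside 0.00, and XTH19 and XTH20 were higher. Lower in both solutions were the same 4 members, XTH16, XTH18, XTH32 and XTH33, and 33.5% of all tested probe sets. By limma, averaged over both solutions, 1 of the 6, XTH16, fell, where 3.24% of all tested probe sets fell and 7.35% changed in either direction. At an unadjusted p below 0.05, limma counted 4 members, all lower at 96 h, and 10.3% of all tested probe sets in that direction.

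XTH16 fell 1.52-fold, with a difference of -0.60 ± 0.17 (SE, 2 arrays per time) and an adjusted p of 0.0431 from limma. Its 2 arrays at 96 h were both dimmer than its 2 arrays at 48 h. The fall was unequal in the solutions, at -0.26 in control and -0.94 in starved roots. The call was lost without the starved 96 h array, where the difference was -0.30 (adjusted p = 0.374), and also without the control 48 h array (-0.63, adjusted p = 0.443) or the starved 48 h array (-0.57, adjusted p = 0.482). It held without the control 96 h array, at -0.90 (adjusted p = 0.00413). Those fits on 3 arrays also lacked the solution term, so their values hold part of the starvation difference too. With all 4 arrays but without that term the adjusted p from limma was 0.159.

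XTH18 differed by nearly the same amount in both solutions, -0.46 in control and -0.53 in starved roots. Its average of -0.49 ± 0.15 (SE) had an adjusted p of 0.0527 from limma, just outside the threshold. XTH33 stood at -0.45 and -0.56, with an average of -0.50 ± 0.16 (adjusted p = 0.0746), and XTH32 at -0.27 and -0.49, with an average of -0.38 ± 0.16 (adjusted p = 0.169). For XTH16, XTH18 and XTH32 both 96 h arrays were below both 48 h arrays, as were those of 26.4% of all tested probe sets. XTH33's arrays of the 2 times overlapped, because starved roots at 48 h were dimmer than control roots at 96 h. Without the control 96 h array the XTH33 average was -0.85 and passed limma (adjusted p = 0.0405), and without the starved 48 h array it was -0.80 (adjusted p = 0.410). Leaving out control 48 h gave -0.21 and leaving out starved 96 h gave -0.15, with adjusted p-values of 0.828 and 0.788 from limma.

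XTH19 and XTH20 went opposite ways in the solutions. XTH19 was 1.48-fold lower at 96 h in control roots (-0.56) and 1.22-fold higher in starved roots (0.28). XTH20 was 1.35-fold lower in control roots (-0.44) and 1.46-fold higher in starved roots (0.54). A member lower in control and higher in starved roots at 96 h was thus counted 2 times among 6, and 18.4% of all tested probe sets had these signs. Their averages of -0.14 ± 0.18 (SE) and 0.05 ± 0.19 had adjusted p-values of 0.721 and 0.913 from limma. The harvest and starvation comparisons use the same 4 arrays, so their patterns are not separate evidence.

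**Figure D3:**
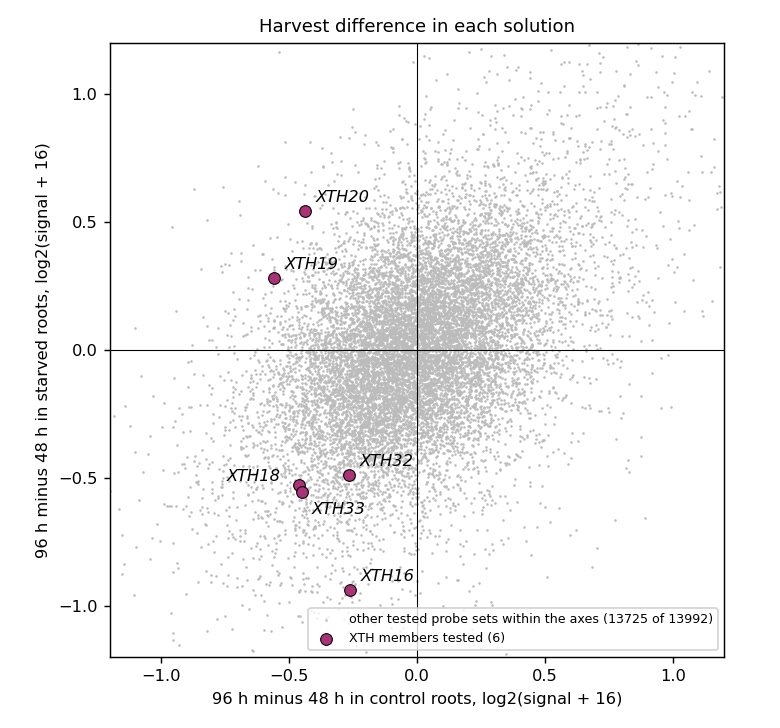
Difference of 96 h minus 48 h in control roots (x axis) and in starved roots (y axis), on the log2(signal + 16) scale, for the 6 tested XTH members (purple) and the other tested probe sets (grey). All 6 members lie left of 0, XTH19 and XTH20 lie above 0 and the other 4 below it, and 267 probe sets fall outside the axes.

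At least 1.4-fold lower in both solutions were 0 of the 6 members and 2.01% of all tested probe sets. No member differed at least 2-fold between the harvests within a solution. In control roots 1.61% of all tested probe sets did, and in starved roots 2.46%. The widest difference of a member was that of XTH16 in starved roots, 1.92-fold lower at 96 h. This count of 0 depends on the pseudocount: with a pseudocount of 1, XTH16 was 2.21-fold lower in starved roots and was the 1 member past 2-fold.

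XTH21, which is known for a part in primary root growth, measured 35.5 (control) and 21.2 (starved) at 48 h, and 23.4 and 16.8 at 96 h. Only the control 48 h array reached its 40th percentile, so these values give no firm difference. XTH29, of group III, measured 3.6, 11.7, 7.5 and 11.3 on the control 48 h, starved 48 h, control 96 h and starved 96 h arrays. All of these were below the 40th percentile, and no fold is given for either gene.

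Some list genes changed with the harvest beside the XTH members, though the lists were chosen with earlier results of these data known. Of 11 hypoxia-list genes, 3 had a named probe set (AT3G10040, AT4G10270 and AT4G17260, a lactate dehydrogenase gene). All 3 rose at 96 h by limma, where 575 of the 13998 tested probe sets rose. Their summed signal went from 386 to 1239 in control and from 388 to 2037 in starved roots. Of the 5 root hair genes, EXPA7, EXPA18 and XTH26, itself an XTH family gene set aside here, fell at 96 h by limma. Over all tested probe sets 3.24% fell. The summed signal of the root hair list went from 2049 to 1372 in control and from 2535 to 1983 in starved roots. Most of that sum came from the peroxidase genes AT4G26010 and AT1G30870, which did not pass for the harvest (adjusted p = 0.184 and 0.110 from limma). The summed root hair signal was higher in starved than in control roots at both times, but 0 of the list's genes passed limma for starvation. The part of low oxygen or of root hair content in the XTH values was not tested.

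Other genes of xyloglucan turnover were read from lists chosen for this purpose. Of 14 genes of xyloglucan synthesis, 5 had a named probe set, all of them CSLC genes, which encode glucan backbone synthases, and all 5 were tested. None passed limma for starvation or for the harvest. CSLC4 (AT3G28180; CSLC04 in RefSeq), the main backbone synthase, measured 195.9 (control) and 151.2 (starved) at 48 h, and 191.4 and 149.9 at 96 h. It was dimmer in starved roots at both times, with log2 differences of -0.34 and -0.32 and an adjusted p of 0.616 from limma. Of all tested probe sets 26.7% were lower in starved roots at both times. The other CSLC genes with a named probe set were lower in starved roots at 48 h and higher at 96 h. The list's median starvation difference was -0.20 at 48 h and 0.14 at 96 h, and its median harvest difference -0.23 in control and -0.01 in starved roots.

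Of 5 genes that trim xyloglucan side chains and ends, 1 had a named probe set, the beta-glucosidase gene BGLC1 (AT5G20950). Its signals were 613 (control) and 508 (starved) at 48 h, and 436 and 524 at 96 h. It was lower in starved roots at 48 h (-0.26) and higher at 96 h (0.26), the same order of signs as in XTH19 and XTH20. Opposite signs at the 2 times, in either order, were found for 49.4% of all tested probe sets. BGLC1 passed limma for neither effect. Of 11 genes of primary wall cellulose synthesis, 2 had a named probe set, COB (AT5G60920) and CC1 (AT1G45688). Their starvation differences lay between -0.05 and 0.07, and neither passed limma for starvation or for the harvest. The touch and brassinosteroid lists had 0 genes with a named probe set.

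**Figure D4:**
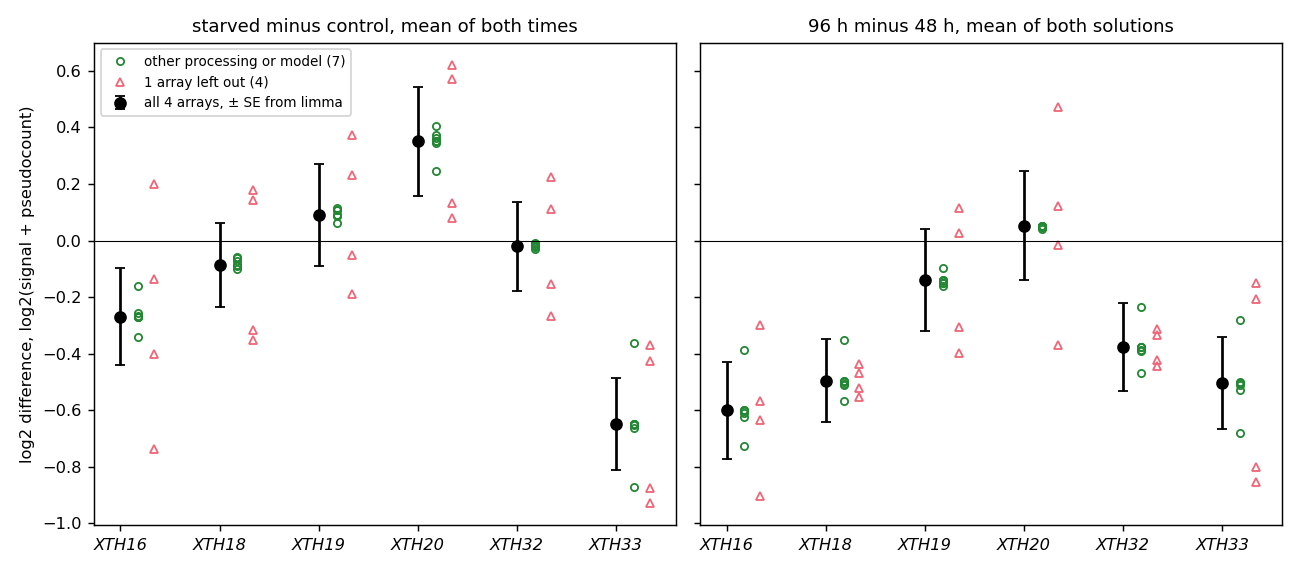
Average starvation difference (left) and harvest difference (right) of the 6 tested XTH members on the log2 scale, from limma on all 4 arrays with its SE (black), under 7 other processing or model choices (green circles) and with each array left out (red triangles). XTH33 stays below 0 on the left, and the triangles of XTH19 lie on both sides of 0 in both panels. Fits behind the triangles lack the other model term, so their values mix the starvation and harvest differences.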

How the data were processed

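Root RNA from 4 groups was measured on 1 Affymetrix ATH1 array each. The authors deposited 1 signal intensity per probe set and array, made with MAS5 (per the submitters' processing notes). The sources used here name no MAS5 version. The 64 control probe sets were set aside, arrays were brought to a common 2% trimmed mean (100), and log2(signal + 16) was taken. Probe sets at or above the array's 40th percentile on at least 2 arrays were tested (13998 of 22746). Names come from the platform annotation, which lists 1 gene for 13513 probe sets, several for 503 and none for 8730; 13436 of the 13513 matched RefSeq.

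limma 3.58.1 (R 4.3.3; lmFit, then eBayes with an intensity trend) was fitted to all 4 arrays with solution and time as terms, which leaves 1 residual degree of freedom, and p-values were adjusted over all tested probe sets by the Benjamini-Hochberg method. The prior had 14.9 degrees of freedom, so SEs and p-values draw largely on other probe sets and do not measure the spread between like cultures. Groups came from the titles. All members were described; those with a limma call, or at least 1.4-fold different the same way in both comparisons of an effect, were to be given on every array. The members and gene lists were chosen with earlier results of these data known. Alternatives were other pseudocounts (1 and 64), no filter, 3 other scalings, no other model term, and each array left out. No genome or sequence table was used.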

Additional observations from a re-analysis of the deposited data

Results flagged for a closer look

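For 4 of the 6 tested XTH members the starvation difference had opposite signs at 48 h and 96 h, as it did for 49.4% of all tested probe sets. With 1 array per group this difference between the times was not tested. The difference at 96 h minus that at 48 h, on the log2(signal + 16) scale, was 0.98 for XTH20 and 0.84 for XTH19, which were higher in starved roots only at 96 h. It was -0.67 for XTH16 and -0.22 for XTH32, which were lower in starved roots only at 96 h.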

How the results depend on the processing

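Every array has replicate number 1 and no group held a replicate array, so replicates could not be paired between groups. With its time term, the limma model compared starved with control roots within each harvest time. No member was called for starvation under any of the 11 alternatives; the adjusted p of XTH33 from limma ranged from 0.136 to 1.000 and its difference stayed negative. The harvest call of XTH16 held with a pseudocount of 64, and the count of called members was 0 with a pseudocount of 1, without the filter, after quantile, equal-median or cyclic loess scaling, and without the solution term; it ranged from 0 to 2 with 1 array left out. Over all probe sets, the 27 starvation calls became 5 with a pseudocount of 1, 12 after quantile scaling, 4 with equal medians, 1 after cyclic loess, 0 with no filter (unadjusted p under 0.05 in limma for 1346), 0 without the time term (278), and 0 with any 1 array left out (232 to 671). The 1029 harvest calls became 578 after cyclic loess, 103 without the filter and 392 without the solution term, and ranged from 23 (without the control 48 h array) to 1123 (without the control 96 h array). The cause of these losses was not tested; fits on 3 arrays also drop a model term. With 1 array left out, the other model term was absent, so each value mixes the starvation and harvest differences. Some of these values differed in sign from the averages on all 4 arrays. For starvation they ranged from -0.74 to 0.20 for XTH16 and -0.35 to 0.18 for XTH18. They ranged from -0.19 to 0.37 for XTH19 and -0.27 to 0.22 for XTH32. For the harvest they ranged from -0.40 to 0.12 for XTH19 and -0.37 to 0.47 for XTH20. Within each time, XTH18 was lower in starved roots (-0.05 at 48 h and -0.12 at 96 h). Under the 3 other scalings, all 24 differences between 2 arrays of the 6 members kept their sign. Another pseudocount or no filter cannot change the sign of such a difference.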
